A study of Mus musculus with 6 samples.

Results

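The genes examined here encode the machinery that loads peptides onto major histocompatibility complex (MHC) class II molecules and displays them to CD4 T cells. They were listed by symbol as H2-Aa, H2-Ab1, H2-Eb1, H2-DMa, H2-DMb1, H2-Oa, H2-Ob, Cd74 and Ciita. A gene was given a value where the platform annotation assigns it a probe set with exactly 1 symbol, which held for 8 of the 9 genes, among 19935 genes measured in all. The exception was H2-DMb1, whose 1 probe set is assigned jointly to H2-DMb1 and H2-DMb2. Each of the other 8 genes had 1 such probe set.

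RNA from whole lung was measured on Affymetrix arrays in 3 samples of Scnn1b-Tg mice and 3 of wild-type mice, all of C57BL/6 background. Scnn1b-Tg mice carry a transgene for Scnn1b, a subunit of the channel that takes up sodium across airway epithelium, and the series was made to look for emphysema candidate genes. In the line of this name known from the literature the transgene is driven in airway club cells, while the labels used here give no promoter, age or sex. Since the labels do not state whether each sample is a separate animal, the p-values reflect sample-to-sample spread that may be technical.

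Class II molecules are pairs of an α and a β chain made by dendritic cells, B cells, macrophages and, in mouse lung, alveolar type 2 cells. The invariant chain, Cd74, fills the groove of new class II molecules and carries them to endosomes, where proteases cut it down to a short remnant. The chaperone H2-DM, a pair of the H2-DMa and H2-DMb products, exchanges that remnant for peptide, and H2-DO, a pair of the H2-Oa and H2-Ob products found mainly in B cells, restrains H2-DM. CIITA, the product of Ciita, is the coactivator that docks on factors bound to the X and Y boxes of class II promoters. Mice of C57BL/6 background carry a defective gene for the E α chain, so the product of H2-Eb1 has no partner to reach the cell surface in them.

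Promoter stretches of 4 of these genes are shown because they hold the same pair of short letter patterns, GNAAC and GATTGG. Their transcripts differed in how far apart the genotypes lay. Each runs from 110 to 31 bases before the annotated start, read 5′ to 3′ in the sense of the gene, from the RefSeq annotation of GRCm38.p6. Capitals mark the letters GNAAC, in the X box region, and GATTGG, the core of the Y box.
H2-Aa, chr17:34287854-34287933, minus strand: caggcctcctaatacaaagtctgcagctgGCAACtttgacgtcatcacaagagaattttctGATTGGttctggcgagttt
H2-Eb1, chr17:34305757-34305836, plus strand: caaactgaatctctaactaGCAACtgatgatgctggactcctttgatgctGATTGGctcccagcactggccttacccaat
H2-Oa, chr17:34092269-34092348, plus strand: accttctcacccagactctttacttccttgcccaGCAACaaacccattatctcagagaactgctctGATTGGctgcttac
H2-Ob, chr17:34238795-34238874, plus strand: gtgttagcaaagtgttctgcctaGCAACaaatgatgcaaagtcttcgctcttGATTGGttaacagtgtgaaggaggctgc

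The letters GATTGG, searched on both strands over 250 bases before to 50 after each start, were found for all 6 of the genes with a promoter entry, which besides these 4 are H2-DMa and H2-DMb1. They occur in 16.1% of the 32851 promoter windows of the table. H2-DMa has 2 windows, of which 1 holds GATTGG. Their starts lie 3139 and 5825 bases inside the annotated boundary of the gene, while those of the other genes lie at the boundary. The annotated 5′ end of H2-DMa was therefore not searched. The pair of GNAAC and GATTGG with 15 to 30 bases between, a pattern written down after these promoters were read, was found for 5 of the 6 genes, all but H2-DMa, and in 0.944% of all windows. The gap between the pair was 27 bases for H2-Aa, 26 for H2-Eb1, 27 for H2-Oa and 24 for H2-Ob. A longer X box core, GNAAC followed directly by NGATG, was found for H2-Eb1 and H2-DMb1 and in 0.782% of windows, and a looser one, GNNAC followed by NGATG, for these and H2-Oa and in 2.97%. GATTGG lay within 40 bases of either core for H2-Eb1 and H2-DMb1, against 0.0487% of windows for the longer core and 0.152% for the looser one. These matches describe the letters and were not tested for binding.

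The arrays were close to each other, with Pearson's r of log2 values across genes, which are not independent replicates, of at least 0.9898. On the first principal component (34.0% of the variance) wild type replicate 2 lay at 16.3 and the other arrays between -8.91 and 5.46, and on the second (22.6%) Scnn1b-Tg replicate 3 lay at -13.3 and the others between -2.47 and 8.03. The fit was repeated without these 2 arrays, singly and together, and this is given for the class II genes. The lists of other genes were not read without them. The gene of the transgene, Scnn1b, had a log2 fold change of 3.37 ± 0.16 (SE, n = 3 each; limma adjusted p = 0.00241), higher on every array labelled Scnn1b-Tg, and it was the only gene of 19935 called at an adjusted p under 0.05. Of 12 lung epithelial and endothelial markers 4 were higher and 8 lower, with a median log2 fold change of -0.01, 0 called, and summed intensities of 20584 to 22891 in Scnn1b-Tg and 22067 to 23008 in wild type; 1 of them, the club cell secretoglobin Scgb1a1, was lower on every Scnn1b-Tg array (-0.31 ± 0.07, limma adjusted p = 0.398). Of 8 measured markers of blood, muscle and fat 3 were higher and 5 lower, with 0 called, and their sums were 799 to 887 in Scnn1b-Tg against 1013 to 1149 in wild type. For 4 of these all Scnn1b-Tg arrays lay below all wild-type arrays, against 4.41% of all genes: Alas2 of red cell precursors (-0.46 ± 0.16) and the heart muscle genes Myl7 (-0.46 ± 0.17), Myh6 (-0.42 ± 0.11) and Tnnt2 (-0.42 ± 0.12), with limma adjusted p-values from 0.561 to 0.758. Tnnt2 was named after its values were seen, and the part of these markers in the class II values was not tested.

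All 8 measured class II presentation genes had higher mean values in Scnn1b-Tg lung, but none passed the threshold over all genes, 0 of 8 against 0.00502% of genes. The genotypes did not overlap for the chains H2-Aa, H2-Ab1 and H2-Eb1, the invariant chain and H2-DMa, the only measured gene of H2-DM. They overlapped for the genes of H2-DO and CIITA. At an unadjusted p under 0.05 there were 5 of 8 higher, against 3.96% of all genes, and 0 of 8 lower, against 2.05%. All 3 Scnn1b-Tg arrays lay above all 3 wild-type arrays for the same 5, H2-Aa, H2-Ab1, H2-Eb1, Cd74 and H2-DMa, against 6.26% of all genes, and for 0 of 8 all lay below, against 4.41%. The median log2 fold change over the 8 genes was 0.42, beside 0.0052 over all genes. With single arrays left out these 5 stayed apart each time, joined by H2-Oa without Scnn1b-Tg replicate 1 and by Ciita without wild type replicate 3, which made 6 of 8 against 11.8% and 11.1% of all genes. With Scnn1b-Tg replicate 3 and wild type replicate 2 left out together, the counts were again 5 of 8 at an unadjusted p under 0.05 and 5 of 8 not overlapping, against 4.14% and 19.1% of all genes. In RNA from whole lung, more cells of a type and more RNA per cell cannot be told apart.

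**Figure D1:**
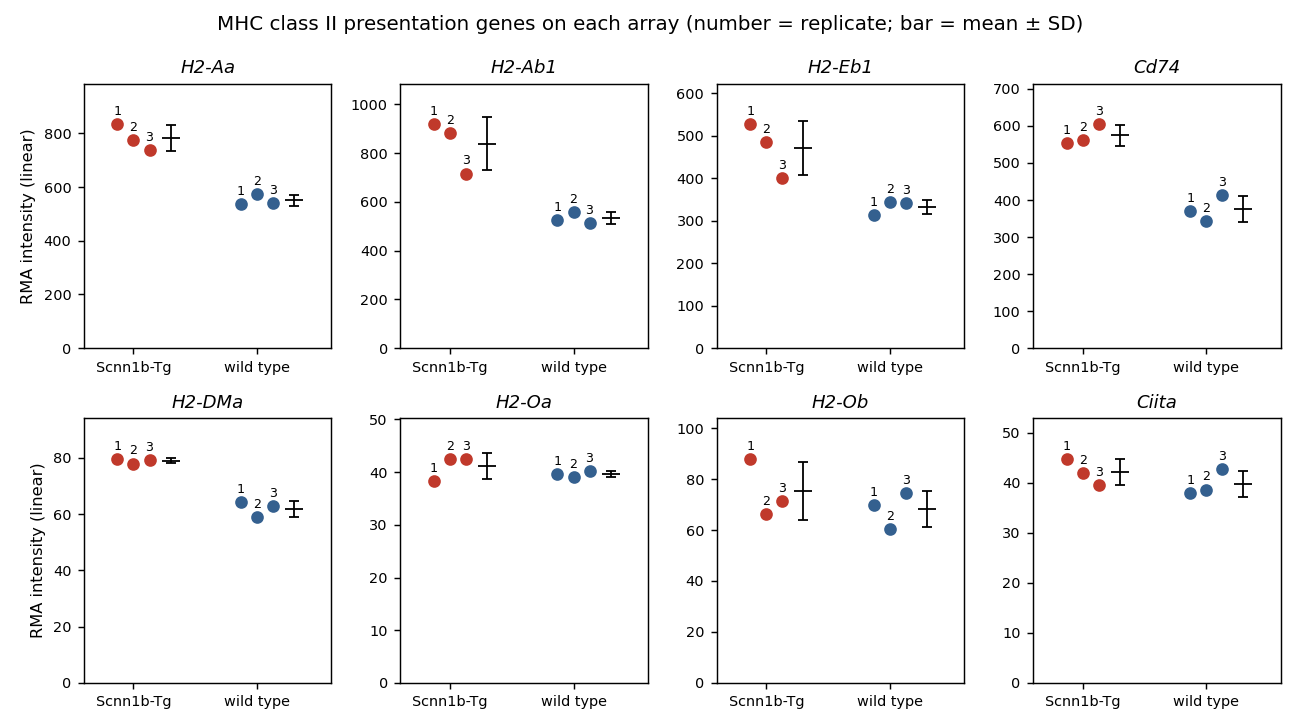
RMA intensity on a linear scale for each of the 8 genes, with Scnn1b-Tg arrays at the left and wild-type arrays at the right of each panel; points are arrays numbered by replicate and bars are mean ± SD of 3. In the panels of H2-Aa, H2-Ab1, H2-Eb1, Cd74 and H2-DMa every Scnn1b-Tg point is above every wild-type point, and in those of H2-Oa, H2-Ob and Ciita the points overlap.

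H2-Ab1, the β chain of the A molecule, which is the class II molecule that C57BL/6 mice display, had the largest log2 fold change of the 8 genes in the fit on all 6 arrays, while Cd74 had a larger one without Scnn1b-Tg replicate 1 (0.64 for Cd74 and 0.58 for H2-Ab1), without Scnn1b-Tg replicate 2 (0.63 and 0.61) and without wild type replicate 3 (0.69 and 0.62). Its intensity was 919, 881 and 716 on Scnn1b-Tg replicates 1, 2 and 3, against 525, 559.8 and 513 on the wild-type replicates. Every transgenic array was above every wild-type array, and Scnn1b-Tg replicate 3 was the lowest of the transgenic ones. The log2 fold change was 0.65 ± 0.10 (SE), or 1.57-fold, with a 95% interval from 0.42 to 0.88 (limma adjusted p = 0.151). Without Scnn1b-Tg replicate 3 it was 0.76 (limma adjusted p = 0.0448), and without both that array and wild type replicate 2 it was 0.79 (adjusted p = 0.0491). It was also called with the 6645 dimmest genes left out (adjusted p = 0.0225 in limma) and with an intensity trend and robust variance (0.0239). Over all 15 alternatives the adjusted p of H2-Ab1 ran from 0.0225 to 0.623.

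H2-Aa, the α chain that pairs with it, had intensities of 835, 776 and 737 on the Scnn1b-Tg arrays, against 537, 574 and 539.95 on the wild-type arrays. The genotypes were apart by more than the range within either of them. H2-Aa had the smallest p-value of the 8 genes, the 11th smallest of all 19935, with a log2 fold change of 0.51 ± 0.06 (SE; limma adjusted p = 0.109). It was called in 2 of 15 alternatives, with the 6645 dimmest genes left out (adjusted p = 0.0225 in limma) and with an intensity trend and robust variance (0.0239). With each array left out in turn the log2 fold change of H2-Aa stayed between 0.46 and 0.55, with adjusted p-values from 0.0879 to 0.503.

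H2-Eb1 encodes the β chain of the E molecule, whose α partner is missing in this background. Its intensities were 528, 485 and 401 on the Scnn1b-Tg arrays, against 313, 344 and 341 on the wild-type arrays. The genotypes did not overlap, with Scnn1b-Tg replicate 3 the nearest to wild type. The log2 fold change was 0.50 ± 0.10 (SE; limma adjusted p = 0.324), and it was 0.61 without Scnn1b-Tg replicate 3 (adjusted p = 0.0879). It was called in 0 of 15 alternatives.

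Cd74, the invariant chain, had intensities of 555, 563 and 605 on the Scnn1b-Tg arrays, against 369, 343 and 415 on the wild-type arrays. Here Scnn1b-Tg replicate 3 was the highest array of all, where for the H2-Aa, H2-Ab1 and H2-Eb1 chains it was the lowest of its genotype. The log2 fold change was 0.62 ± 0.08 (SE), or 1.53-fold, with a 95% interval from 0.43 to 0.80 (limma adjusted p = 0.120). Cd74 was called in 2 of 15 alternatives, with the 6645 dimmest genes left out (adjusted p = 0.0196 in limma) and with the intensity trend (0.0231), and its adjusted p reached 0.495 among the others.

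**Figure D2:**
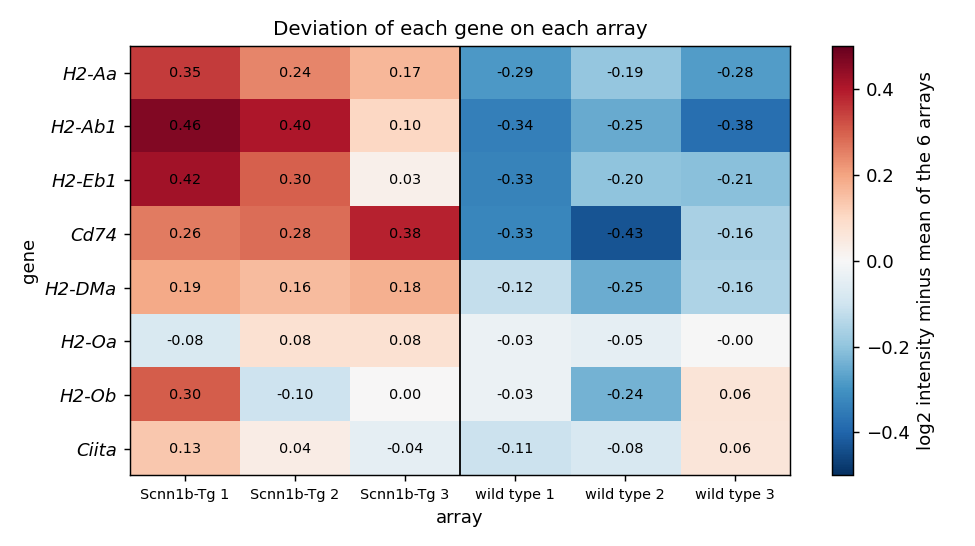
Log2 intensity of each gene on each array minus its mean over the 6 arrays, with the 3 Scnn1b-Tg arrays left of the line and the 3 wild-type arrays right of it. On Scnn1b-Tg replicate 3, H2-Ab1 (0.10) and H2-Eb1 (0.03) are close to their means while Cd74 (0.38) has its highest value.

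H2-DMa, the α chain of the peptide exchange chaperone, had the tightest transgenic values. They were 79.7, 78.0 and 79.1 on the Scnn1b-Tg arrays, against 64.4, 58.8 and 62.8 on the wild-type arrays, so the genotypes did not overlap. The log2 fold change was 0.35 ± 0.05 (SE), with a 95% interval from 0.23 to 0.47 (limma adjusted p = 0.146). It stayed between 0.31 and 0.38 with single arrays left out, and was called in 0 of 15 alternatives.

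The genes of H2-DO, which restrains H2-DM, overlapped between genotypes. H2-Oa had intensities of 38.3, 42.6 and 42.5 on the Scnn1b-Tg arrays, against 39.6, 39.1 and 40.2 on the wild-type arrays. Its log2 fold change was 0.05 ± 0.05 (SE; limma adjusted p = 0.969), with a 95% interval from -0.08 to 0.18. H2-Ob had intensities of 88.0, 66.3 and 71.3 on the Scnn1b-Tg arrays, against 69.9, 60.6 and 74.5 on the wild-type arrays. Scnn1b-Tg replicate 1 was its highest array and the other transgenic arrays lay within the wild-type range. Its log2 fold change was 0.13 ± 0.12 (SE; limma adjusted p = 0.941), with an interval from -0.15 to 0.42, and without Scnn1b-Tg replicate 1 it was 0.02. Without that same array H2-Oa was 0.10 (limma adjusted p = 0.840) and its genotypes no longer overlapped. The interval of H2-Oa lay below that of H2-DMa, while that of H2-Ob was wide enough to include the estimate of H2-DMa.

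Ciita, which sets class II transcription in the cells that make it, had intensities of 44.8, 41.9 and 39.6 on the Scnn1b-Tg arrays, against 37.9, 38.7 and 42.7 on the wild-type arrays. The genotypes overlapped through wild type replicate 3, which was above all but 1 of the transgenic arrays; without it they did not, and the log2 fold change was 0.14 (limma adjusted p = 0.973). The log2 fold change was 0.08 ± 0.07 (SE; limma adjusted p = 0.933), with a 95% interval from -0.08 to 0.24. Its probe set gives 1 value for the gene and does not separate the start sites that different cell types use. Ciita, H2-Oa, H2-Ob and H2-DMa have low intensities on arrays whose lowest values are between 18.3 and 18.6, and any constant in the deposited values would make log2 fold changes of dim genes too small. With 16 subtracted from every value the log2 fold changes were 0.45 for H2-DMa, 0.08 for H2-Oa, 0.17 for H2-Ob and 0.14 for Ciita.

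**Figure D3:**
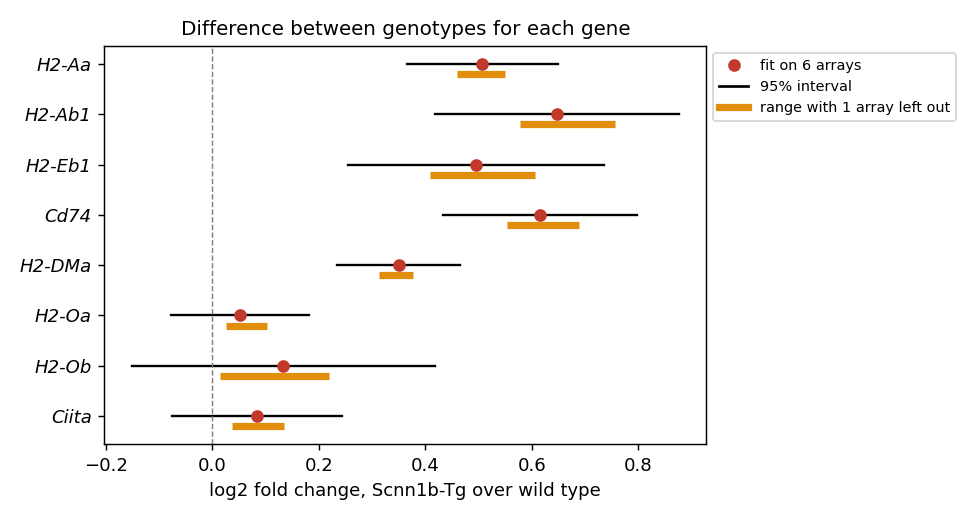
Log2 fold change of Scnn1b-Tg over wild type for the 8 genes (points), with 95% intervals of the limma fit (black lines) and the range with each array left out in turn (orange bars). The intervals of H2-Oa, H2-Ob and Ciita include 0 and those of the other 5 genes do not.

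Ratios between the genes were compared within arrays, as deviations from their mean over the 6 arrays and without a test. The log2 ratio of H2-DMa to the mean of H2-Oa and H2-Ob was 0.08, 0.17 and 0.14 on the Scnn1b-Tg arrays, against -0.09, -0.11 and -0.19 on the wild-type arrays. It was thus higher on every transgenic array, by 0.26 between the means. The log2 ratio of the H2-Aa, H2-Ab1 and H2-Eb1 mean to Ciita was 0.28, 0.28 and 0.14 on the Scnn1b-Tg arrays, against -0.21, -0.13 and -0.35 on the wild-type arrays, a difference of 0.47 between the means with no overlap. The ratio of the same 3 chains to Cd74 was 0.15, 0.03 and -0.29 on the Scnn1b-Tg arrays, against 0.01, 0.22 and -0.13 on the wild-type arrays. These overlapped, with a difference of -0.07 between the means that was smaller than the SD within Scnn1b-Tg (0.23) and within wild type (0.17).

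The 7 H2 genes lie together on chromosome 17, in the order H2-Oa, H2-DMa, H2-DMb1, H2-Ob, H2-Ab1, H2-Aa and H2-Eb1 in GRCm38, while Cd74 is on chromosome 18 and Ciita on chromosome 16. Among them lie 6 further protein-coding genes, of which 5 were measured: Brd2, a bromodomain regulator, and Psmb9, Tap1, Psmb8 and Tap2, which make and move peptides for class I. All 5 had small positive values, with a median log2 fold change of 0.07 and a range of 0.05 to 0.17, and 0 were called. Psmb9, the next measured gene after H2-DMa, gave 0.17 ± 0.04 (SE; limma adjusted p = 0.495) and Tap1 gave 0.15 ± 0.06 (adjusted p = 0.819). Both had all Scnn1b-Tg arrays above all wild-type arrays, which made 2 of the 5 neighbours, against 6.26% of all genes. The 3 genes at the far end of this order, H2-Ab1, H2-Aa and H2-Eb1, had the largest values of the region.

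**Figure D4:**
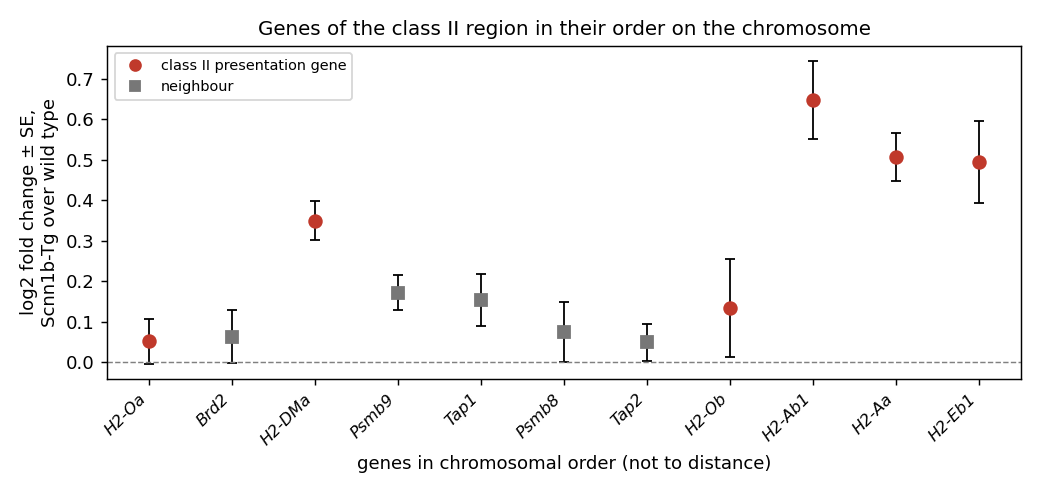
Log2 fold change ± SE of Scnn1b-Tg over wild type for the measured genes of the class II region, in their order on the chromosome and not to distance; circles are class II presentation genes and squares are the neighbours. The neighbours lie between 0.05 and 0.17, and H2-Ab1, H2-Aa and H2-Eb1 between 0.50 and 0.65.

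Other genes of class II processing were read from a list of 15, of which 13 were measured. Of these 10 were higher and 3 lower in mean, 0 were called, and 4 had an unadjusted p under 0.05 and were higher (30.8%, against 3.96% of all genes). Ctss, cathepsin S, which trims the invariant chain, had intensities of 851, 732 and 701 on the Scnn1b-Tg arrays, against 557, 549 and 542 on the wild-type arrays. It had the largest value of the list, with a log2 fold change of 0.47 ± 0.08 (SE; limma adjusted p = 0.187). Like H2-Aa, H2-Ab1 and H2-Eb1 it was lowest among the transgenic arrays on replicate 3. Ifi30, the lysosomal thiol reductase that unfolds antigens, gave 0.35 ± 0.08 (adjusted p = 0.403), and Ctsb, cathepsin B, gave 0.22 ± 0.05 (adjusted p = 0.440).

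The factors that work with CIITA on the promoters, and the interferon-γ path that induces Ciita, had 6 of 16 measured genes higher, 10 lower, a median of -0.03 and 0 called. Their largest values were 0.18 ± 0.07 (SE) for the receptor chain Ifngr2, 0.16 ± 0.09 for the kinase Jak1 and -0.14 ± 0.12 for the Y box factor Nfyb (limma adjusted p = 0.817, 0.878 and 0.941). Interferon-γ induced genes outside presentation had 4 of 13 higher and 9 lower, with a median of -0.05 and 0 called. The class I presentation list, which shares Psmb9 and Tap1 with the region above, had 10 of 16 higher, a median of 0.04 and 0 called. Costimulatory genes had 8 of 10 higher, a median of 0.08 and 0 called, led by Pdcd1lg2, the PD-1 ligand PD-L2 (0.40 ± 0.09, limma adjusted p = 0.364), and Cd80 (0.26 ± 0.06, adjusted p = 0.455). The T cell side of class II recognition had 9 of 11 higher, a median of 0.08 and 0 called. All Scnn1b-Tg arrays lay above all wild-type arrays for 5 of the 10 costimulatory genes, against 6.26% of all genes. The same held for 3 of the 16 class I genes and 1 of the 11 T cell genes. It held for 1 of the 16 promoter factor and interferon-γ path genes and 0 of the 13 interferon-γ induced genes.

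Markers of the cells that carry class II differed in how far apart the genotypes lay, and their part in the class II values was not tested. Conventional dendritic cell markers were higher in mean for 18 of 20, with all Scnn1b-Tg arrays above all wild-type arrays for 10 of them (against 6.26% of all genes), a median of 0.18 and 0 called. Their summed intensity was 1760 to 1905 on the Scnn1b-Tg arrays, against 1560 to 1657 on the wild-type arrays. The 2 markers lower in mean were Zbtb46 (-0.04 ± 0.09, SE, limma adjusted p = 0.992) and Dpp4 (-0.16 ± 0.08, adjusted p = 0.867). Mgl2, a lectin of one dendritic cell subset and of some macrophages, had intensities of 119, 127 and 70.1 on the Scnn1b-Tg arrays, against 52.7, 68.4 and 53.8 on the wild-type arrays. Cd209a, another lectin of that subset, had 146, 109 and 71.4 on the Scnn1b-Tg arrays, against 60.1, 90.1 and 62.7 on the wild-type arrays. On Scnn1b-Tg replicate 3, where H2-Aa, H2-Ab1 and H2-Eb1 were lowest among the transgenic arrays, both lectins were also lowest among them. Other markers of the list differed in this, as Itgax had 107, 129 and 120 on the Scnn1b-Tg arrays. A link between these orders was not tested. Ccl17, a chemokine of dendritic cells, had 69.4, 80.2 and 82.9 on the Scnn1b-Tg arrays, against 56.2, 40.7 and 40.4 on the wild-type arrays, and like Cd74 was highest on Scnn1b-Tg replicate 3.

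Monocyte and interstitial macrophage markers were higher for 12 of 14, with 8 not overlapping (against 6.26% of all genes), a median of 0.26 and 0 called, and sums of 1995 to 2098 in Scnn1b-Tg against 1665 to 1858 in wild type. The largest log2 fold changes were those of Itgam, the CD11b integrin chain (0.91 ± 0.15, SE; limma adjusted p = 0.205), Adgre1, the F4/80 antigen (0.76 ± 0.17; 0.398), and the chemokine receptor Ccr2 (0.66 ± 0.17; 0.492). The 2 markers lower in mean were Lyve1 (-0.11 ± 0.14; 0.979) and Fcgr1 (-0.06 ± 0.07; 0.969). Alveolar macrophage markers were higher for 9 of 13, with a median of 0.08 and 0 called. All Scnn1b-Tg arrays lay above all wild-type arrays for 5 of the 13 (against 6.26% of all genes), among them Chil3, Itgax and Siglecf. For 1 of the 13 all lay below (against 4.41%). Itgax is also in the dendritic cell list, and Mrc1, another of the 5, is also in the interstitial macrophage list. The counts of these lists are therefore not separate. The sums of the alveolar macrophage list were 3786 to 4388 in Scnn1b-Tg against 2339 to 2643 in wild type. Chil3, a chitinase-like protein, was at 1.34 ± 0.19 (limma adjusted p = 0.146). Without Chil3 the sums of the other 12 markers overlapped, at 1596 to 1841 in Scnn1b-Tg and 1499 to 1599 in wild type, and 1 of them, Fabp1, was below wild type on every Scnn1b-Tg array (-0.36 ± 0.12; 0.757). The sum without Chil3 and the naming of Fabp1 were chosen after the values were seen. Leukocyte genes in general were higher for 12 of 12, with a median of 0.29, 0 called and sums of 2514 to 2918 in Scnn1b-Tg against 2099 to 2292 in wild type. For 7 of the 12 all Scnn1b-Tg arrays lay above all wild-type arrays (against 6.26% of all genes). At an unadjusted p under 0.05 there were 8 of 12 higher (66.7%, against 3.96% of all genes).

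B cell markers overlapped between genotypes for all 14 measured genes. Overlap was the usual state, since 6.26% of all genes had every Scnn1b-Tg array above wild type and 4.41% had every one below. Of the 14, 12 were higher in mean with a median of 0.11 and 0 were called. At an unadjusted p under 0.05 there were 0, against 3.96% of all genes higher and 2.05% lower. The sums of 768 to 939 in Scnn1b-Tg and 640 to 889 in wild type overlapped. Wild type replicate 2 was the lowest wild-type array for every B cell marker but Cr2 and Cxcr5. The counts and median of this list were not read without that array. The largest values were 0.37 ± 0.17 (SE; limma adjusted p = 0.842) for Cd37, a tetraspanin, and 0.21 ± 0.13 for the adaptor Bank1 (0.906). Alveolar type 2 cell markers had 8 of 12 higher with a median of 0.03, and plasmacytoid dendritic cell markers 4 of 8 with a median of 0.0016, and 0 of either list were called. None of the measured genes in the dendritic cell, macrophage, B cell, type 2 cell or plasmacytoid lists had a mean intensity under 25 in both genotypes. Some were dim all the same, such as Cr2 (mean 24.9 in Scnn1b-Tg and 25.1 in wild type) and Clec9a (32.0 and 30.3). The limit given above for dim genes holds for their log2 fold changes too.

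**Figure D5:**
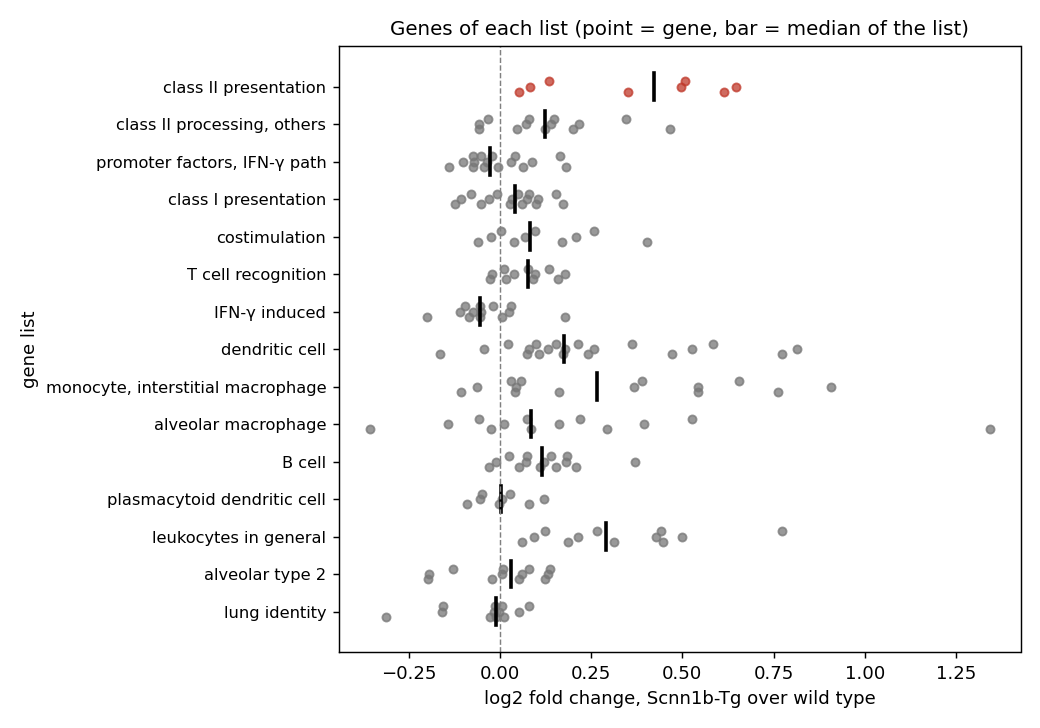
Log2 fold change of Scnn1b-Tg over wild type for the measured genes of each list (points) and the median of the list (bars), with the class II presentation genes at the top in red. The median of the class II presentation genes is 0.42, that of leukocyte genes in general 0.29, that of B cell markers 0.11 and that of interferon-γ induced genes -0.05.

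The genes outside the list whose profile was most like the mean of the 8 genes were found by the root mean square difference between centred log2 values over the 6 arrays, among 18697 named genes. The closest was Coro2a, an actin-binding coronin, which differed from the mean profile by 0.030 on the log2 scale and had a log2 fold change of 0.41 ± 0.06 (SE; limma adjusted p = 0.151). It was followed by Lcp2, an adaptor of leukocyte signalling (0.039), Myo1f, a myosin of leukocytes (0.042), the kinase Syk (0.047), the phospholipase Plcg2 (0.052) and the GTPase Rac2 (0.054). These 6 genes were picked by their likeness to the profile on the same arrays. A difference between genotypes in them follows from that choice and is no separate result. Among the 8 class II genes themselves, the same difference was 0.053 for H2-DMa, 0.089 for H2-Aa and 0.11 for H2-Eb1, and it was 0.14 for Ciita, 0.16 for Cd74 and H2-Ob, 0.17 for H2-Ab1 and 0.18 for H2-Oa. For H2-Ab1 and Cd74 the difference includes their larger range, and for H2-Oa and Ciita their smaller one.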

How the data were processed

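Lung RNA was measured on Affymetrix arrays after Trizol extraction and whole-transcript labelling, per the labels' protocols. The authors deposited an intensity for each probe set, processed with RMA according to the submitters' processing notes (version not given in the sources used here). The values, with array medians of 47.6 to 48.5 and lowest values of 18.3 to 18.6, are linear. The number of arrays limits the precision.

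Of 28815 probe sets, 21780 had exactly 1 symbol in the platform annotation, 1605 several and 5430 none. The brightest over the 6 arrays was kept for each of 19935 genes. The log2 values were fitted in R 4.3.3 with limma 3.58.1 (lmFit and eBayes, genotype as the only term), as two-sided tests with p-values adjusted by Benjamini-Hochberg over the whole table and a threshold of 0.05. In simulated data for this comparison (19935 genes, 200 changed), 74.6% of genes changed by 0.5 in log2 and 96.2% of those changed by 1 were recovered. About 195 genes were called per simulated run, against 1 in the measured data, and more calls make the adjusted threshold easier to pass. These shares therefore do not give the recovery in the measured data, where an uncalled gene cannot be read as unchanged. Chil3, at a log2 fold change of 1.34, was not called there.

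The genes and lists were chosen with earlier results of these data known, and no list was tested as a set. Genes named are the presentation genes, Scnn1b, up to 3 largest absolute log2 fold changes of a list and the 6 most similar profiles. Tnnt2, Fabp1, Mrc1, Lyve1, Fcgr1, Zbtb46, Dpp4, Clec9a, Cr2 and Cxcr5 were named after their values were seen. Alternatives were each array left out in turn, a replicate block, array weights, an intensity trend with robust variance, quantile normalization, median centring, the 6645 dimmest genes left out, the mean over probe sets, and 16 subtracted from every value. Leaving out wild type replicate 2 together with Scnn1b-Tg replicate 3 was added after seeing the data.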

Additional observations from a re-analysis of the deposited data

How the results depend on the processing

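Each of the 8 measured class II genes kept a positive log2 fold change in all 15 alternatives, and 5 of 8 had an unadjusted p under 0.05 in each of them, against 2.81% to 5.52% of all genes. The count called among the 8 was 3 with the 6645 dimmest genes left out (H2-Aa, H2-Ab1 and Cd74) and 3, the same genes, with an intensity trend and robust variance. It was 1 (H2-Ab1) with Scnn1b-Tg replicate 3 and wild type replicate 2 left out together, chosen after seeing the data. With single arrays left out it ran from 0 to 1, the 1 without Scnn1b-Tg replicate 3, and it was 0 in the other alternatives. Over all genes the count was 39 with the dimmest genes left out, 36 with the trend, 23 with 16 subtracted, 6 without both arrays, and 0 (without wild type replicate 3) to 5 (without Scnn1b-Tg replicate 3) with single arrays left out. Replicate numbers are shared between genotypes in the labels but pair nothing there. Deviations of arrays with the same number correlated at 0.026, 0.028 and 0.039, and those with different numbers at -0.063 to 0.024. All of these are small, and a pairing was not tested. The replicate block gave 3 called genes over all and 0 of the 8. With 16 subtracted the log2 ratio of H2-DMa to H2-Oa and H2-Ob differed by 0.33 between genotypes. The difference in the ratio of the 3 chains to Cd74 was 0.15 without both arrays and ran from -0.16 to 0.06 with single arrays left out, positive without either wild type replicate 2 (0.03) or Scnn1b-Tg replicate 3 (0.06). The cause of these changes was not tested.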
